A study of Mus musculus with 20 samples.

Results

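The PRAME-like and Oog genes were read across mouse embryos of 3 cleavage stages. Members were all genes of the deposited tables whose symbol begins with Pramef, Pramel or Oog and a number, together with BC061212, AF067061, B020004J07Rik and Gm12794. This gave 19 of 24411 genes, of which 4 were Oog genes (called oocyte-type here), 5 Pramef genes, 6 Pramel genes and 4 the genes given by name (called 2-cell-type here). The split into types rests on names and prior knowledge, not on the values. Messenger RNA came from 16 libraries, each made from a pool of 10 embryos obtained by in vitro fertilisation of superovulated oocytes and cultured in KSOM medium. At the 1-cell stage, embryos were electroporated with a control siRNA that targets no gene (siControl) or one against Pcgf5 (siPcgf5), and were collected as late 2-cell embryos at 36 hours after insemination or as morulae at 72 hours, with 2 libraries in each of these 4 groups. At the 4-cell stage, 48 hours after insemination and without siRNA, 2 libraries were WT, 3 were heterozygous (Hetero KO) and 3 homozygous (Homo KO) for a deletion that the labels name Pcgf5MT2C_Mm, after an MT2C_Mm element, a long terminal repeat of an endogenous retrovirus. Strain, sex, the position of the deletion and the number of founder animals are not given in the sources used here, and all libraries carry the same batch label. Pcgf5 encodes a subunit of a variant Polycomb repressive complex 1, and by its title the series asks how it bears on the silencing of zygotic genome activation.

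PRAME is a family of leucine-rich repeat proteins that has multiplied into clusters of neighbouring copies in rodents, and many of its mouse genes are expressed in germ cells and early embryos. Several of its proteins act as substrate receptors of a cullin-2 ubiquitin ligase. Pramel7, known from the inner cell mass, directs that ligase to Uhrf1, a partner of the DNA methyltransferase Dnmt1, and Pramel6 and Pramel7 are known to support the pluripotent state of cultured stem cells. The Oog (oogenesin) genes are PRAME relatives known from growing oocytes, and transcripts stored in the oocyte are cleared as the embryo starts its own transcription.

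All 19 members matched a RefSeq gene of GRCm38.p6, the assembly of mm10, and 13 of them lie on chromosome 4. Oog1 lies on chromosome 12, Pramel6 and Pramel7 on chromosome 2, Pramel3 on the X chromosome, BC061212 on chromosome 5 and AF067061 on chromosome 13. AF067061 alone has a RefSeq symbol that is neither Pramel nor Oog. It was taken by name, and whether it belongs to the PRAME family was not tested. The RefSeq promoter table (250 bases before to 50 after the gene start) held 18 of the members, all but Pramef8. The 4 Oog promoters were alike, with 70% to 78% identical bases in each pair against a median of 54.33% over the 153 pairs of members. The last 60 bases before each annotated start are printed below, since Oog3, Oog2 and Oog1 had the largest changes between stages in siControl. Capitals mark the TATA box letters TATAAA.
Oog1: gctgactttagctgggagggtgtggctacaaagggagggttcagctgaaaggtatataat
Oog2: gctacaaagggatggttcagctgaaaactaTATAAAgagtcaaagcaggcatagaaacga
Oog3: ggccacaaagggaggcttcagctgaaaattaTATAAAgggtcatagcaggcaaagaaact
Oog4: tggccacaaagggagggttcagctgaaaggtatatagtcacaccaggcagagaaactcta
These stretches are chr12:87602605-87602664 (plus strand), chr4:144190657-144190716 (plus), chr4:144162652-144162711 (minus) and chr4:143450325-143450384 (minus). TATAAA stood about 30 bases before the start of Oog2 and Oog3 (first base at -30 and -29) and was not found anywhere in the 300 bases of Oog1 and Oog4. With BC061212 (-28), 3 of 18 member promoters held it on either strand, against 13.6% of all 32851 promoters in the table.

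Members with alike promoters did not always change in the same direction between stages. Pramef17 and Pramel7 share 78% of their promoter bases and lie on different chromosomes, and their transcripts moved in opposite directions, as described further on. They are printed below with capitals at the bases that the alignment did not match to the same base in the other.
Pramef17: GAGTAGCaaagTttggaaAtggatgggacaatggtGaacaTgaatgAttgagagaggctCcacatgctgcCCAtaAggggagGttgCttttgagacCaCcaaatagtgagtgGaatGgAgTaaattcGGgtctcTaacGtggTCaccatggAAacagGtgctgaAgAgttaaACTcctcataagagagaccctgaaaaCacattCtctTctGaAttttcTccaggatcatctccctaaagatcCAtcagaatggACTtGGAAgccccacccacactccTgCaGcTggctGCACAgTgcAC
Pramel7: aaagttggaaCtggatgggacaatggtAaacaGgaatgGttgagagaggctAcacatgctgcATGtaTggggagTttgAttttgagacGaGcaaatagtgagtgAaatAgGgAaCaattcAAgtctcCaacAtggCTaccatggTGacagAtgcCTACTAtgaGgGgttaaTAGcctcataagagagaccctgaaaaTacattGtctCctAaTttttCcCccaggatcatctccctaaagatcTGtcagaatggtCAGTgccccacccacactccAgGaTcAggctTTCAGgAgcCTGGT
The windows are chr4:143994320-143994619 and chr2:87492369-87492668, both on the minus strand. Pramel4 and B020004J07Rik share 72.3% of their bases and also moved apart, and their promoters are given in the same way. Whether the rise of Pramel4 was called depended on the method, as described further on.
Pramel4: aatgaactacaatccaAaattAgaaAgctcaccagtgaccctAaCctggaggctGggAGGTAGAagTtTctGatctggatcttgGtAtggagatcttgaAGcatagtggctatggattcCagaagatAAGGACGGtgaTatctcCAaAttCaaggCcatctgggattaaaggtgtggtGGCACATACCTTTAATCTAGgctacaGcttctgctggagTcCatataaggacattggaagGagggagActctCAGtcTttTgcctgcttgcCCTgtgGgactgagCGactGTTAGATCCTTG
B020004J07Rik: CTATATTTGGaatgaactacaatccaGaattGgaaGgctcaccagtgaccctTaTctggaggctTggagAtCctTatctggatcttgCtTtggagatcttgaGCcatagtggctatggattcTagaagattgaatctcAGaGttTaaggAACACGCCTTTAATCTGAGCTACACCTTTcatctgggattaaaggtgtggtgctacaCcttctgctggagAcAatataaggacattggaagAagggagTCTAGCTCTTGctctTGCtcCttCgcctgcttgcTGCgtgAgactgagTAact
These are chr4:144058875-144059174 (plus strand) and chr4:101843973-101844272 (minus). Pramel4 and Pramel5, the most alike pair with 89%, moved the same way. Of the other motifs searched on both strands, the E-box CANNTG was in 18 of 18 member promoters against 72.3% of all promoters, the NOBOX element TAATTG in 3 (Oog3, Oog4 and Pramef12) against 8.0%, and the OTX or OBOX type site TAATCC in 5 (Pramef6, Pramel4, Pramel5, AF067061 and B020004J07Rik) against 7.06%. No run of 6 letters fits more than 1 of these motifs, though matches can overlap in position. A match is a run of letters and not a shown binding site.

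Library depth was 14310634 to 55620137 expected counts. Levels are given as TPM (a share of all transcripts scaled for transcript length), and changes as log2 fold changes of an edgeR fit with their standard error (SE), called at an adjusted p below 0.05 over all genes tested. Pcgf5 stood at 59.1 and 103 TPM in siPcgf5 against 397 and 931 TPM in siControl late 2-cell embryos, and at 19.3 and 24.3 against 99.2 and 146 TPM in morulae. At the 4-cell stage it was 158 to 199 TPM in Homo KO, 248 to 331 in Hetero KO and 254 and 339 in WT. The 10 late 2-cell markers fixed for this work summed to 1745 to 3099 TPM in late 2-cell libraries and 9.0 to 24.6 TPM in morulae, and the 10 morula markers to 271 to 332 TPM in morulae and 54.0 to 64.7 TPM in late 2-cell embryos. No label says whether replicate pools came from different cultures, so p-values measure only the spread between these libraries. In pools of embryos, fewer cells holding a transcript and less transcript per cell cannot be told apart.

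Reads from near-identical copies can be split between genes, and the deposited counts show where this happened. In 12 of 19 members the expected count was not a whole number in at least 1 library, among them Oog1 in 12 of the 12 libraries where it had counts, and Pramef17, Pramef25, Pramel3 and Pramel4 in all 16 libraries. Over all genes with counts the share was 8.85% to 11.3% per library. BC061212 had the same TPM and counts in all 16 libraries as Gm7978, another PRAME gene on chromosome 5 (largest difference 0.0), so the files hold 1 value for both. Oog3, Oog4, Pramef8, Pramef12, Pramel1, Pramel6 and Pramel7 had whole counts in every library.

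The members changed their makeup from the late 2-cell stage to the morula. In late 2-cell embryos the 4 Oog genes supplied 67.6% to 83.1% of the summed TPM of the members, and Pramel4 to Pramel7 supplied 9.55% to 17.8%. In morulae the Oog share was 0.060% to 0.151% and that of Pramel4 to Pramel7 was 97.6% to 98.6%. The 4-cell libraries lay between, with 7.71% to 34.6% for Oog and 57.3% to 90.4% for Pramel4 to Pramel7. Summed over all members the level was 5886 to 7409 TPM in late 2-cell embryos, 1311 to 2135 TPM at the 4-cell stage and 1794 to 2000 TPM in morulae.

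**Figure D1:**
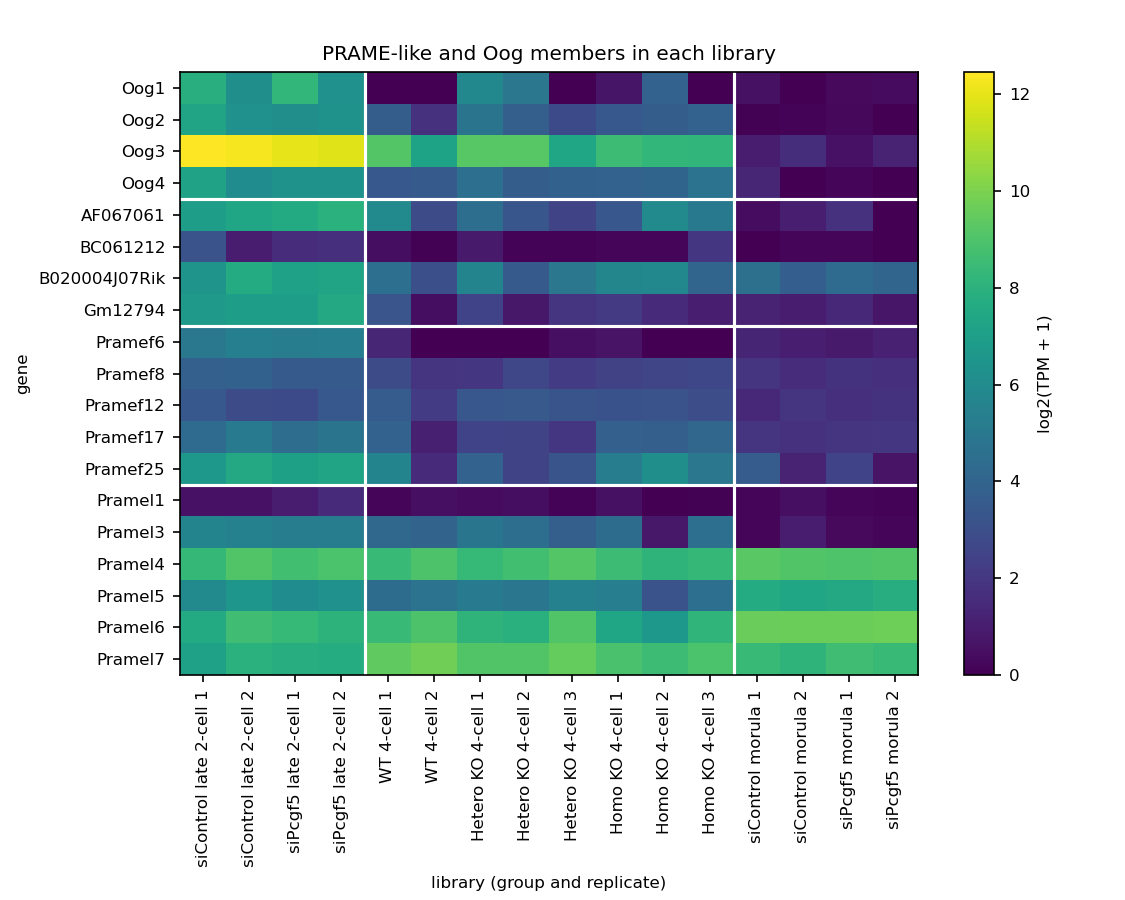
Level of each of the 19 members (rows) in each of the 16 libraries (columns, by stage), as log2(TPM + 1) on the colour scale. Oog3 is the brightest row in late 2-cell libraries and dark in morulae, where Pramel4, Pramel5, Pramel6 and Pramel7 hold the signal.

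From late 2-cell to morula, 13 of 19 members fell and 4 rose in siControl embryos. Over all 16980 genes tested, 28.1% were called lower and 24.9% higher, and the median log2 fold change was -0.34 against -3.47 over the members. In siPcgf5 embryos, which share no library with the controls, 14 members fell and 4 rose, against 28.2% of genes called lower and 24.5% higher, with a median of -4.07 for members and -0.38 for all genes. All 13 members that fell in siControl also fell in siPcgf5, and all 4 that rose (Pramel4 to Pramel7) did so in both, though with limma on log2(TPM + 1) Pramel4 was called in neither.

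**Figure D2:**
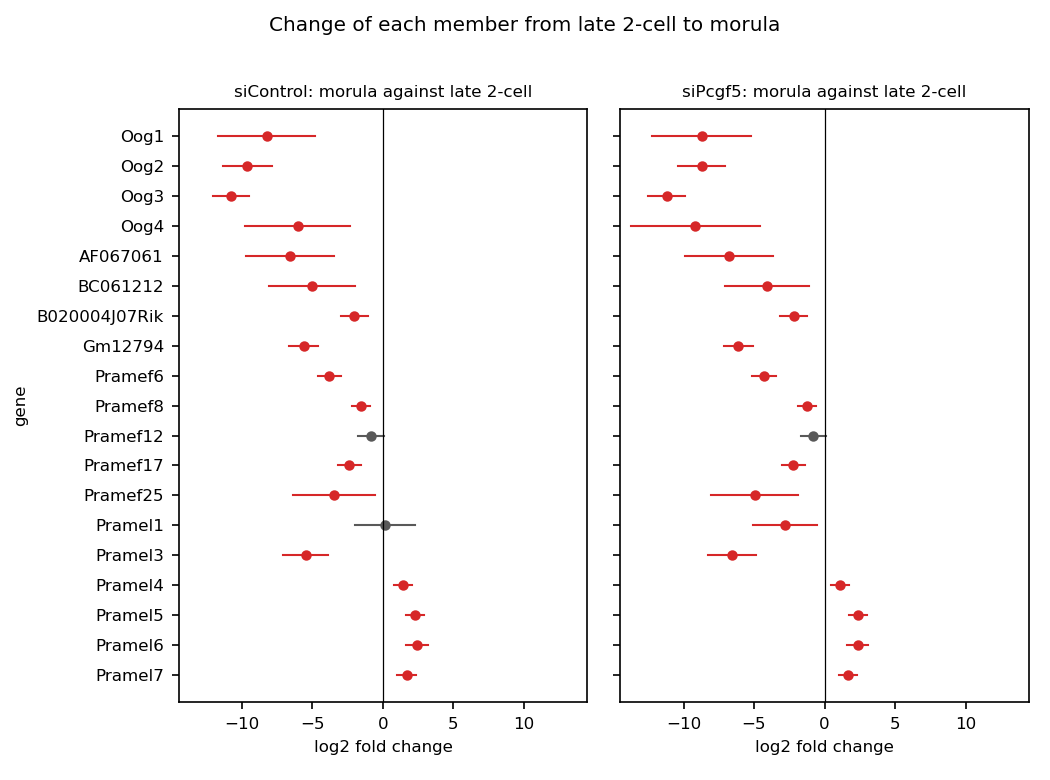
Log2 fold change (edgeR) of each member from late 2-cell to morula in siControl (left) and siPcgf5 (right) embryos, with 95% intervals; red marks an adjusted p below 0.05. Of the 19 members, 13 and 14 are red to the left of 0, and Pramel4 to Pramel7 are red to the right in both panels, of which Pramel4 was not called with limma on log2(TPM + 1).

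Among the oocyte-type genes, Oog3 (chr4:144157556-144162651) was the most abundant of all members in late 2-cell embryos. It stood at 5633 and 5054 TPM in siControl and 4106 and 3735 TPM in siPcgf5, and at 0.96 and 2.10 and 0.51 and 1.25 TPM in the corresponding morulae. The next member, Pramel4, had 316 to 547 TPM in the same late 2-cell libraries, below every Oog3 value. Gm10436, a PRAME family gene outside the member rule, had 2259 to 4030 TPM there. In siPcgf5 embryos Oog3 fell by 11.21 on the log2 scale (SE 0.591, edgeR adjusted p 7.58e-07).

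The other oocyte-type genes were far less abundant at the late 2-cell stage and fell as well. Oog2 (chr4:144190717-144196934) was at 152 and 77.1 TPM in siControl and 69.5 and 84.2 TPM in siPcgf5 late 2-cell embryos, and at 0.01 to 0.22 TPM in the 4 morula libraries. Its log2 fold changes were -9.62 (SE 0.774, edgeR adjusted p 6.21e-06) and -8.72 (SE 0.747, edgeR adjusted p 9.77e-06) in siControl and siPcgf5. Oog4 (chr4:143437164-143450324) was at 142 and 66.0 TPM, then 83.1 and 79.7 TPM, and in morulae at 1.54 and 0 TPM in siControl and 0.18 and 0 TPM in siPcgf5. The 2 siControl morulae stood on both sides of the siPcgf5 value of 0.18 TPM. The log2 fold change of -6.03 (SE 1.56, edgeR adjusted p 0.0164) was no longer called when either siControl late 2-cell library was left out (-5.46 without replicate 1 and -6.48 without replicate 2).

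Oog1 (chr12:87602665-87608845) differed between replicates more than it differed between treatments. It was at 229 and 71.7 TPM in siControl, 307 and 77.0 TPM in siPcgf5 and at most 0.47 TPM in morulae, with log2 fold changes of -8.23 (SE 1.44) and -8.70 (SE 1.46). Gm10436, which RefSeq names Pramel51 and places at chr12:88175589-88181894, had 4030 and 2259 TPM in siControl and 2821 and 2295 TPM in siPcgf5 late 2-cell embryos. Oog1 made up 3.08% to 9.83% of the sum of both genes there, and whether its reads are shared with Gm10436 was not tested. Adding the genes together gave 4259 and 2331 TPM, then 3128 and 2372 TPM.

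The 2-cell-type genes also fell, each in both treatments. AF067061 (chr13:120263095-120264517) was at 123 and 164 TPM in siControl and 198 and 245 TPM in siPcgf5 late 2-cell embryos and at 0.35 and 1.10, then 2.41 and 0 TPM in morulae. Gm12794 (chr4:101940407-101943183) was at 107 and 125, then 121 and 184 TPM, against 0.69 to 1.73 TPM in morulae. Their log2 fold changes in siControl were -6.60 (SE 1.33) and -5.63 (SE 0.454). B020004J07Rik (chr4:101834969-101844022) declined least, from 87.1 and 204 in siControl and 138 and 152 TPM in siPcgf5 to 23.6 and 12.1, then 19.2 and 15.6 TPM, with -2.04 (SE 0.432, edgeR adjusted p 0.00259) in siControl and -2.19 (SE 0.434) in siPcgf5. BC061212 was low throughout, at 8.14 and 1.01, then 1.97 and 2.30 TPM, and at most 0.13 TPM in morulae. Its call in siControl (-5.03, SE 1.38) was lost without siControl late 2-cell replicate 1 (-2.98), the library at 8.14 TPM, and without siControl morula replicate 1 (-4.21). In siPcgf5 its call (-4.07, SE 1.35) was lost without either late 2-cell library (-4.14 and -3.96) or without morula replicate 2 (-3.14). The call of AF067061 was lost without siControl morula replicate 1 (-6.00).

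Of the Pramef genes, 4 of 5 fell in both treatments. Pramef25 (chr4:143948183-143951016) was the highest of them, at 98.5 and 182 TPM in siControl and 134 and 156 TPM in siPcgf5 late 2-cell embryos, and at 11.4 and 1.36, then 4.62 and 0.59 TPM in morulae. Its call in siControl (-3.47, SE 1.20, edgeR adjusted p 0.0486) lay close to the threshold. Leaving out siControl late 2-cell replicate 1 (-3.88) or 2 (-2.90) or siControl morula replicate 2 (-2.62) ended it, as did a fit with the replicate number as a block (-4.12). In siPcgf5 it was -4.97, and without either late 2-cell library (-5.02 and -4.86) it was not called. 

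The other Pramef genes were lower in every morula library than in any late 2-cell library. Pramef6 had 30.8 and 41.2 TPM in siControl and 38.3 and 38.6 TPM in siPcgf5 late 2-cell embryos, then 1.48 and 1.09 and 0.89 and 1.21 TPM in the morulae (-3.80, SE 0.374, in siControl). Pramef17, whose promoter is printed above, had 19.4 and 34.6, then 21.2 and 26.7 TPM, and 2.74 and 2.47, then 2.71 and 2.93 TPM (-2.38, SE 0.38). Pramef8 had 13.2 and 13.6, then 10.4 and 10.6 TPM, and 2.62 and 1.95, then 2.59 and 2.24 TPM (-1.55, SE 0.289). Pramef12 had 9.69 and 6.27, then 5.85 and 9.79 TPM, and 1.73 and 2.65, then 2.35 and 2.58 TPM. Although its TPM did not overlap between the stages, Pramef12, known for its part in spermatogonial stem cells, was not called in siControl with edgeR (-0.84, SE 0.411, edgeR adjusted p 0.108), but was called lower with DESeq2's Wald test (-1.01) and with limma on log2(TPM + 1) (-1.48).

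The Pramel genes went both ways. Pramel3, the X-linked member, fell from 48.3 and 43.3 TPM in siControl and 36.2 and 36.9 TPM in siPcgf5 to 0.13 and 0.90, then 0.26 and 0.17 TPM in the morulae (-5.48, SE 0.706, in siControl). Pramel1, known from the testis, was the least abundant member of late 2-cell embryos, at 0.50 and 0.52 TPM in siControl and 0.98 and 1.80 TPM in siPcgf5 late 2-cell embryos and 0.13 and 0.44, then 0.13 and 0.09 TPM in morulae. It was not called in siControl (0.16, SE 0.966) and was called lower in siPcgf5 (-2.80, SE 1.03, edgeR adjusted p 0.0417), a call lost without any 1 of the 4 siPcgf5 libraries. The difference between these changes was not called (-2.96, SE 1.40, edgeR adjusted p 0.982).

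Pramel6 (chr2:87506565-87510865) and Pramel7 (chr2:87489088-87492418) rose between the stages. Pramel6 stood at 192 and 403 TPM in siControl and 327 and 265 TPM in siPcgf5 late 2-cell embryos and at 790, 795, 799 and 846 TPM in the 4 morula libraries, above every late 2-cell value. Its log2 fold change was 2.41 (SE 0.348, edgeR adjusted p 0.000201) in siControl and 2.35 (SE 0.347) in siPcgf5. Pramel7 was at 140 and 246, then 216 and 209 TPM, and in morulae at 342 and 278, then 404 and 336 TPM, again without overlap (1.68, SE 0.298, and 1.67, SE 0.297).

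Pramel5 and Pramel4, both on chromosome 4 and with the most alike promoters, had changes of different size. Pramel5 (chr4:144270633-144280466) had 59.4 and 91.7, then 65.4 and 77.8 TPM in late 2-cell embryos and 205 and 162, then 182 and 215 TPM in morulae (2.28, SE 0.286, in siControl). Pramel4 (chr4:144059125-144069327) had 316 and 547, then 415 and 493 TPM, and 614 and 532, then 519 and 539 TPM, so the stages overlapped in TPM. The edgeR call of Pramel4 (1.40, SE 0.29, edgeR adjusted p 0.00215, in siControl, and 1.09, SE 0.288, in siPcgf5) held with DESeq2 size factors in place of TMM (1.23 in siControl), and in siPcgf5 it was lost without late 2-cell replicate 1 (1.00). With limma on log2(TPM + 1), which also differs in unit, length correction and model, its change was 0.46 (adjusted p 0.158) in siControl and 0.23 (adjusted p 0.481) in siPcgf5, while Pramel5, Pramel6 and Pramel7 stayed called higher at 1.29, 1.51 and 0.73 in siControl.

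Scaling and method also moved the comparison of siControl stages as a whole. The median of all genes was -0.51 with DESeq2 size factors and -0.50 with limma on log2(TPM + 1), against -0.34 with edgeR. EdgeR called 4220 genes higher and 4766 lower, with DESeq2 size factors in the same fit 3848 and 5167, and limma on TPM, where more than the scaling differs, 2474 and 7431. The summed TPM of the Pramel genes was 0.83 higher on the log2 scale in siControl morulae than in siControl late 2-cell embryos, and 1.69 higher as TMM-scaled CPM (counts scaled for library size but not for transcript length). For the Oog genes the corresponding values were -11.10 and -10.05, and for the 2-cell-type genes -4.37 and -2.91.

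Marker lists moved with the stage too. The 20 maternal genes had a mean log2(TPM + 1) of 7.20 to 7.996 in late 2-cell, 5.02 to 6.18 in 4-cell and 2.35 to 2.52 in morula libraries. The 10 cumulus and granulosa cell markers summed to 23.8 to 39.7 TPM in late 2-cell libraries, led by Tnfaip6 with Amh at 0 in all 4, to 0.59 to 12.4 TPM at the 4-cell stage and to 0 to 0.14 TPM in morulae, where Amh, Fshr, Cyp19a1, Inha and Ptx3 were at 0 in all 4. The 8 testis and sperm markers summed to 110 to 155, 14.0 to 39.1 and 5.81 to 8.13 TPM, led at each stage by Ldhc, with Tnp2 and Akap4 at 0 in every 4-cell and morula library. Their part in the fall of the members was not tested.

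**Figure D3:**
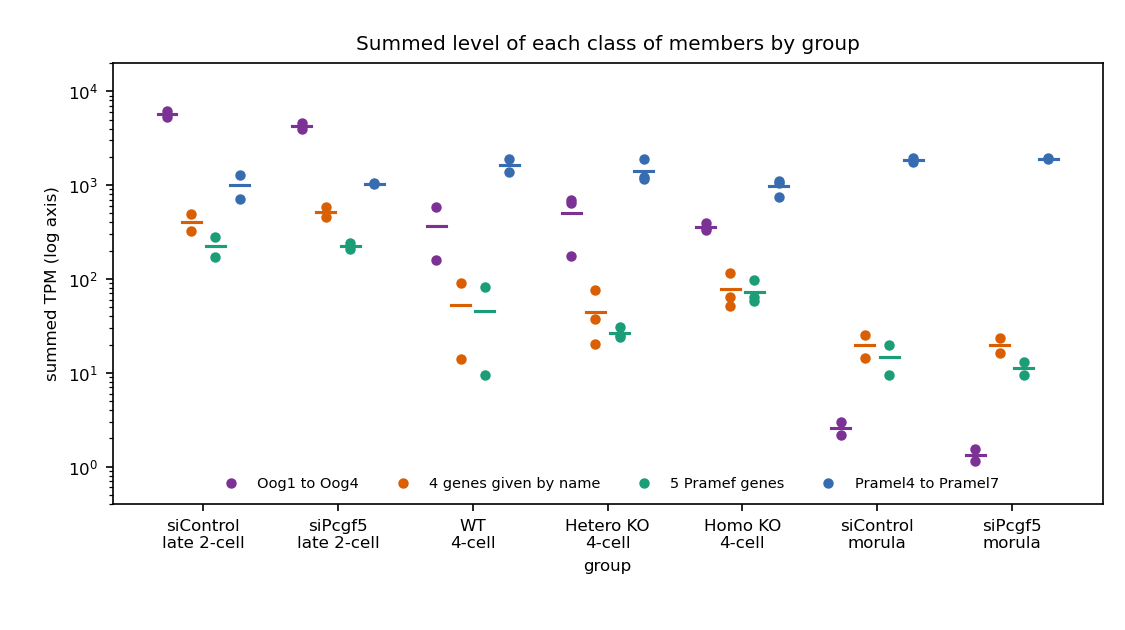
Summed TPM (log axis) of Oog1 to Oog4, of the 4 genes given by name, of the 5 Pramef genes and of Pramel4 to Pramel7 in each library (points) with the group mean (short lines), by group in order of stage. The Oog sums run from 3976 to 6156 TPM in late 2-cell libraries to 1.16 to 3.01 TPM in morulae, while Pramel4 to Pramel7 stay between 707 and 1951 TPM in all 16 libraries.

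The WT 4-cell libraries stand between the stages in time but belong to the experiment without siRNA, so stage and experiment cannot be told apart here. Against siControl late 2-cell, 1 member was higher and 7 were lower in WT 4-cell embryos, with 17.5% of 16669 genes called higher and 15.2% lower. The higher one was Pramel7, at 678 and 851 TPM against 140 and 246 TPM (2.34, SE 0.313, edgeR adjusted p 5.12e-05), and it kept this call without each library in turn. Lower were Oog1, Oog2, Oog3, Gm12794, B020004J07Rik, Pramef6 and Pramef8. Oog3 stood at 559 and 147 TPM (-3.64, SE 0.704), and Oog1 was listed at 0 in both WT libraries. With a floor of 3 counts over the group, which covers counting error only, it was at least 1704-fold lower, and at least 878-fold without siControl late 2-cell replicate 1. The floor does not cover reads assigned to another copy. Gm10436 had 148 and 79.3 TPM in these WT libraries, against 4030 and 2259 TPM in siControl late 2-cell embryos. Whether Oog1 reads were assigned to it was not tested. Fewer members, and fewer of all genes, were called lower without WT 4-cell replicate 2 and without the second siControl late 2-cell library. The median over the members was -1.54 and -1.67 in these fits, against -0.44 and -0.33 over all genes. Limma on log2(TPM + 1) called 13 members lower, and 5229 of all 16669 genes, against 2526 genes with edgeR. The call of Oog1 was lost without any 1 of the 4 libraries.

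From WT 4-cell to siControl morula, 3 members were higher (Pramel4, Pramel5 and Pramel6) and 4 lower (Oog2, Oog3, Pramel3 and AF067061), against 14.9% and 15.3% of genes. Pramel5 was lowest at the 4-cell stage, at 20.5 and 26.2 TPM in WT, and stood 3.61 higher in siControl morulae on the log2 scale (SE 0.593, edgeR adjusted p 0.000562). In TPM, Pramel7 was higher in WT and Hetero KO 4-cell embryos, at 533 or more, than in any morula, at 404 or less. As TMM-scaled CPM, Pramel7 overlapped, at 684 to 1233 in WT and Hetero KO and 600 to 837 in morulae. The edgeR fit did not call it lower in siControl morula than in WT (-0.66, SE 0.299, edgeR adjusted p 0.106), while limma on log2(TPM + 1) did (adjusted p 0.0016). Pramef17, not called (-0.78), changed direction with the WT library left out, at 1.80 without replicate 1 and -1.64 without replicate 2. Without either siControl morula library, 1 member was called higher and 3 lower, without WT 4-cell replicate 1 it was 2 and 2, and without WT 4-cell replicate 2 it was 2 and 5.

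Other PRAME family genes were found in the files under symbols that the rule did not take. RefSeq gives a Pramel name to 19 of them, of which 18 could be tested. In siControl, 15 of the 18 fell from late 2-cell to morula and 1 rose, and the same numbers held in siPcgf5, with medians of -5.83 and -5.30. Gm7978, which shares its values with BC061212, is among those that fell. The most abundant were Gm10436, Gm3139, Gm13023 (Pramel25), Gm13103 (Pramel27), Gm13084 (Pramel26) and Gm13078 (Pramel24). Gm13023 stood at 1042 and 421 TPM in siControl late 2-cell embryos and at 0.39 and 0.79 TPM in siControl morulae (-9.22, SE 0.864). Gm3139 (Pramel42, on chromosome 5) was the 1 that rose, at 106 and 253 TPM and then 271 and 214 TPM (1.41, SE 0.371, edgeR adjusted p 0.0086), so its stages overlapped in TPM, as those of Pramel4 did, and with limma on log2(TPM + 1) it was not called (0.55).

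Genes of the ligase with which PRAME proteins work were called higher or not depending on the method. Of 8 listed partners, edgeR called 6 higher in siControl morulae than in late 2-cell embryos, namely Cul2, the scaffold, Rbx1, the ring-finger subunit, Tceb1 and Tceb2, the elongin C and B adaptors, Nedd8, the modifier that activates cullins, and Cand1, which exchanges their receptors. The number was also 6 with DESeq2 size factors. With limma on log2(TPM + 1), applied, as were those size factors, to these lists after seeing the data, 3 remained called higher in siControl (Cul2, Tceb1 and Nedd8) and 2 in siPcgf5 (Cul2 and Tceb1). Cul2 went from 19.0 and 36.9 TPM to 53.3 and 63.1 TPM in siControl (2.04, SE 0.357, with edgeR and 1.10 with limma), without overlap. Rbx1 stood at 461 and 480 TPM and then 508 and 535 TPM (1.17 with edgeR and 0.15 with limma). The mRNA of Uhrf1, whose protein is the known target of Pramel7, fell under both, from 3.86 and 7.18 TPM to 0.65 and 1.27 TPM (-1.49, SE 0.463, with edgeR and -1.70 with limma). Protein was not measured here, and a part of Pramel7 in this fall of mRNA was not tested. Dnmt1 also fell in siControl under both (-1.12 and -1.40), while in siPcgf5 it was called with limma (-1.10) and not with edgeR (-0.72, SE 0.407).

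Lists of transcription factors moved over the same interval. Of 6 oocyte transcription factors, 4 fell in siControl and 3 in siPcgf5, and Nobox, a homeobox factor of oocytes, Lhx8 and Sohlh1 fell in both, also with limma. Of 6 regulators of the 2-cell stage, Zscan4c, Zscan4d and Zscan4f fell in both treatments with both edgeR and limma. Dppa2 was called higher in both with edgeR (1.20 in siControl), and with limma in siPcgf5 (0.77) but not in siControl (0.22).

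Knockdown of Pcgf5 asks whether the family responds to loss of this Polycomb subunit. In late 2-cell embryos 0 of 19 members were called, with 0.0118% of 16980 genes called (2 genes). Below an unadjusted p of 0.05 with edgeR lay 0 members, against 5.58% of all genes. DESeq2 called 0 members, with 27 genes higher and 45 lower. The median log2 fold change was 0.08 over the members and -0.01 over all genes, and 12 of 19 were above 0. For 5 members the siPcgf5 and siControl values did not overlap in TPM, against 30.9% of all genes, with AF067061 and Pramel1 higher and Oog3, Pramef8 and Pramel3 lower.

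Intervals show how much change these 2 libraries a side could have hidden. For Oog3 the log2 fold change was -0.33 with a 95% interval from -1.17 to 0.51, and for AF067061 it was 0.75 (-1.62 to 3.12). Pramel4, Pramel5, Pramel6 and Pramel7 had 0.16, 0.01, 0.08 and 0.23, and their intervals lay between -0.65 and 0.87. The widest interval among the members was that of Oog4, from -3.16 to 2.72. A library that stood apart was siControl replicate 1, where the 20 maternal genes had a mean log2(TPM + 1) of 7.996 against 7.20 to 7.35 in the other 3, and where Pramel4 (316 TPM), Pramel6 (192 TPM) and Pramel7 (140 TPM) were lowest. Without it 0 members were called, the median over the members was -0.14, and Pramel4, Pramel5, Pramel6 and Pramel7 turned to -0.20, -0.29, -0.37 and -0.14. Without siControl replicate 2 the median was 0.47 over the members and -0.01 over all genes. In that fit 11 of 19 members were above 0, among them B020004J07Rik (0.90), Pramel4 (0.69), Pramel6 (0.79) and Pramel7 (0.77).

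At the morula 0 members were called in siPcgf5 against siControl, as were 0% of genes. With edgeR 0 members lay below an unadjusted p of 0.05, against 4.22% of all genes. DESeq2 called 0 members, with 5 genes higher and 18 lower over all genes. The median was 0.02 over members and -0.01 over all genes. Pramel6 alone did not overlap, at 799 and 846 TPM in siPcgf5 and 790 and 795 TPM in siControl (0.02, 95% interval -0.71 to 0.75), against 30.2% of all genes without overlap. Oog3 (-0.79, SE 0.428) and Pramel3 (-1.29, SE 0.674) had the smallest p-values, at levels of 2.10 TPM or less. The value of Pramel3 was -2.09 without siControl morula replicate 1 and 0.71 without replicate 2. The difference between the knockdown effects at the 2 stages was called for 0 members and 0% of genes, and for 0 members by DESeq2. Below an unadjusted p of 0.05 with edgeR lay 0 members, against 4.96% of all genes.

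**Figure D4:**
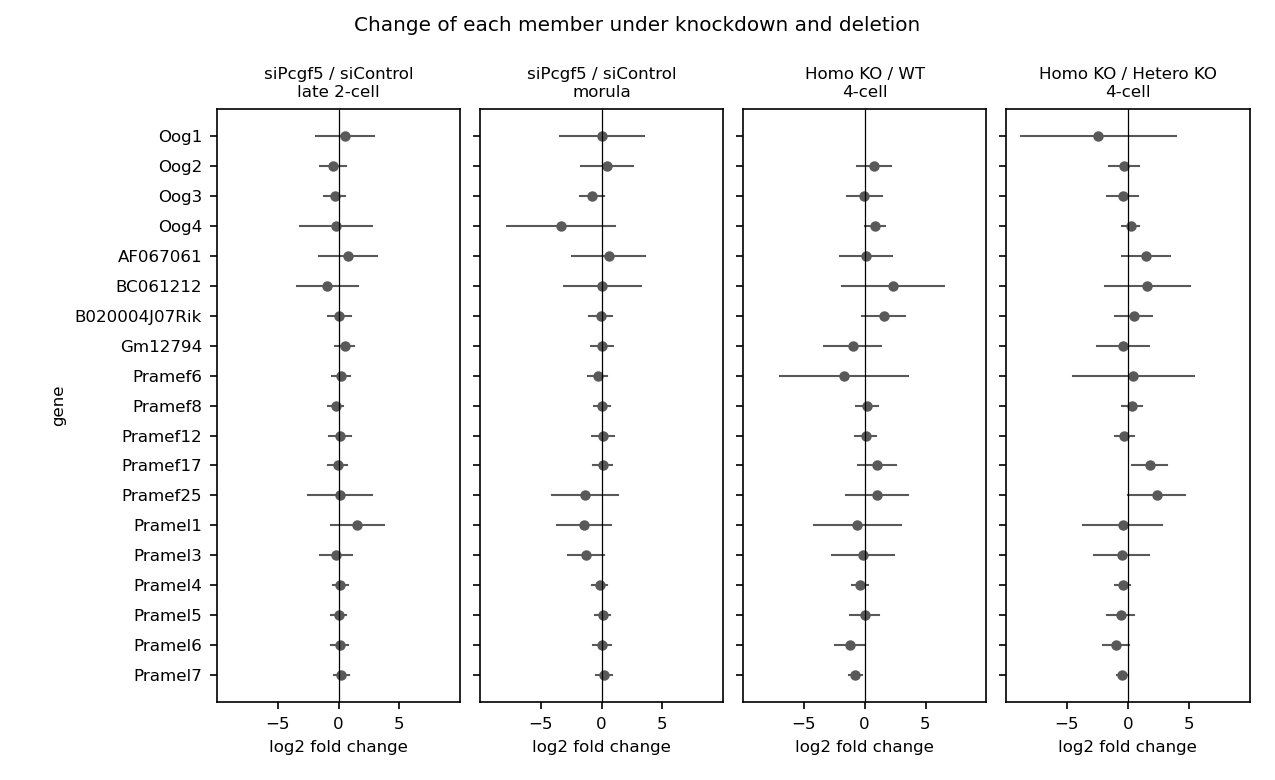
Log2 fold change (edgeR) with 95% interval of each member for siPcgf5 against siControl at late 2-cell and morula, and for Homo KO against WT and Hetero KO at the 4-cell stage. No member reached an adjusted p below 0.05, so all are grey; Oog1 is left out of the panel against WT because it was listed at 0 in both WT libraries.

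The 4-cell libraries ask whether the members change with deletion of the MT2C_Mm repeat, which is not a test of Pcgf5 loss. Pcgf5 remained at 158 to 199 TPM in Homo KO against 254 and 339 TPM in WT. In Hetero KO, at 248 to 331 TPM, it overlapped with WT. With edgeR 0 members and 0% of 13766 genes were called in Homo KO against WT, in Hetero KO against WT and in Homo KO against Hetero KO. DESeq2 also called 0 members in each, with 237 genes higher and 96 lower in Homo KO against WT, 6 and 1 in Hetero KO against WT, and 89 and 22 in Homo KO against Hetero KO. The medians over the members were 0.07, 0.03 and -0.31, against 0.02, 0.00 and -0.01 over all genes. Below an unadjusted p of 0.05 with edgeR lay 3 members (Pramel7, Pramel6 and Oog4), 0 members and 2 members (Pramef17 and Pramef25) in the same order. The share of all genes below it was 12.4%, 4.76% and 8.22%.

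Summed over the members alone, the 3 Homo KO libraries had 1597, 1311 and 1577 TPM. This was below 2135 and 2074 TPM in WT and 2005, 1925 and 2130 TPM in Hetero KO. Other PRAME family genes are not in these sums, and a sum over the whole family was not made. Gm10436 had means of 267 TPM in Homo KO, 273 in Hetero KO and 114 in WT. For Gm3139 the means were 321, 439 and 569 TPM in the same order. Pramel7 was at 477, 367 and 488 TPM in Homo KO, 539, 533 and 736 TPM in Hetero KO and 678 and 851 TPM in WT. It was lower in all 3 Homo KO libraries than in any other 4-cell library, but its log2 fold change against WT of -0.79 (SE 0.243, unadjusted p 0.00744, edgeR adjusted p 0.272) did not pass. Pramel6 was at 159, 98.1 and 285 TPM in Homo KO, 278, 236 and 536 TPM in Hetero KO and 333 and 496 TPM in WT (-1.22 against WT, SE 0.512, edgeR adjusted p 0.392). Its Homo KO values lay below both WT values and overlapped with Hetero KO. Pramel4 was at 374, 279 and 318 TPM against 333 and 502 TPM in WT, with overlap.

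**Figure D5:**
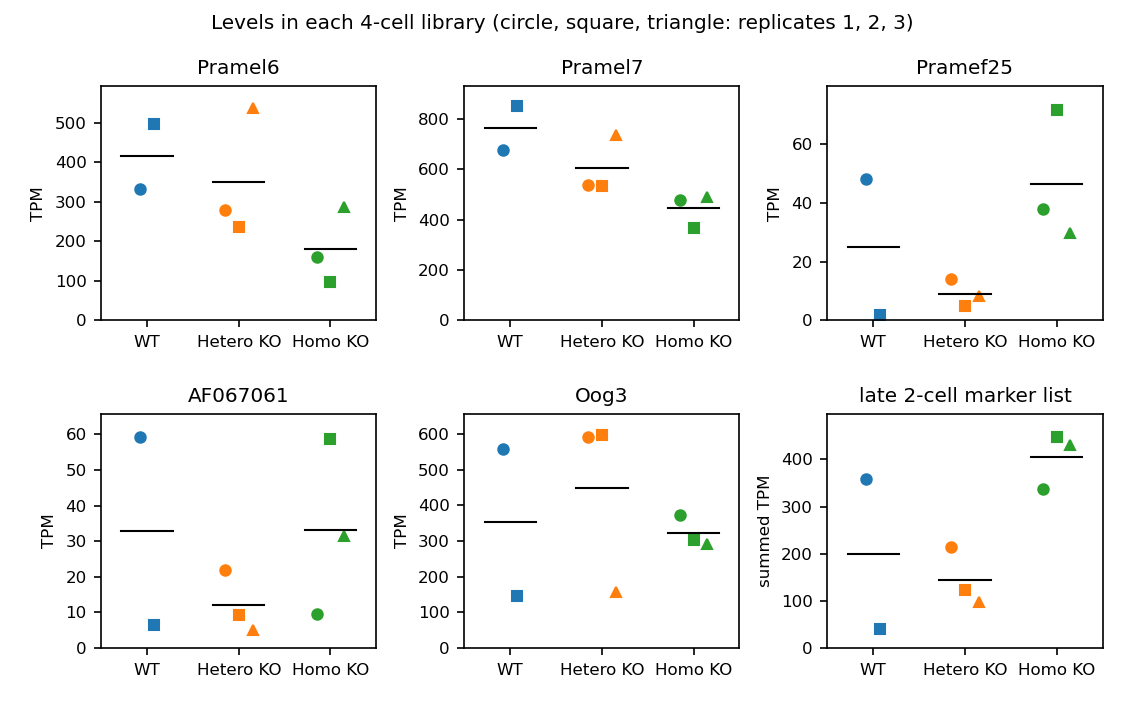
TPM of Pramel6, Pramel7, Pramef25, AF067061 and Oog3, and the summed TPM of the 10 late 2-cell markers, in each 4-cell library (circles, squares and triangles for replicates 1, 2 and 3) with group means (lines). Pramel7 is lowest in the 3 Homo KO libraries, and WT replicates 1 and 2 lie apart for Pramef25, AF067061, Oog3 and the markers.

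The 2 WT libraries differed in Pramef and 2-cell-type members and in late 2-cell markers. WT replicate 1 had 359 TPM and WT replicate 2 had 40.6 TPM of the 10 late 2-cell markers, against 97.5 to 214 TPM in Hetero KO and 337 to 448 TPM in Homo KO. In the same WT libraries Pramef25 was at 48.3 and 1.90 TPM, Pramef17 at 14.2 and 1.11 TPM, AF067061 at 59.3 and 6.40 TPM and Gm12794 at 8.79 and 0.37 TPM. Pramef25 was at 37.9, 71.7 and 29.7 TPM in Homo KO and 14.0, 4.96 and 8.47 TPM in Hetero KO (2.37, SE 0.992, unadjusted p 0.0482, edgeR adjusted p 0.602). Pramef17 was at 13.1, 12.7 and 16.6 TPM in Homo KO and 4.61, 4.86 and 2.97 TPM in Hetero KO (1.79, SE 0.637, edgeR adjusted p 0.518). The part of the markers in these differences was not tested.

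Oog3 varied as widely within WT and within Hetero KO as between genotypes. In TPM, Oog4 was lower in both WT libraries than in any Hetero KO or Homo KO library. As TMM-scaled CPM, Oog4 in WT replicate 2 (16.1) stood above Hetero KO replicate 2 (15.8). Oog3 was at 559 and 147 TPM in WT, 591, 597 and 158 TPM in Hetero KO and 374, 304 and 291 TPM in Homo KO. WT replicate 2 and Hetero KO replicate 3, the libraries with the least Oog3, had the most Pramel6 (496 and 536 TPM) and Pramel7 (851 and 736 TPM), the lowest maternal means (5.14 and 5.02 in log2(TPM + 1) against 5.41 to 6.18) and the highest morula marker sums (81.2 and 70.7 TPM against 30.0 to 58.0). The marker rankings depended on the measure. Maternal sums were 29253 and 30027 TPM there, above WT replicate 1 (28777) and Homo KO replicates 1 and 2 (26196 and 25529). The mean log2(TPM + 1) of the morula markers was higher in WT replicate 1 (1.70) than in Hetero KO replicate 3 (1.67). Without WT replicate 2, and without each other library in turn, 0 members were called in any of the 3 comparisons. Without WT replicate 1 the median over the members was 1.00 in Homo KO against WT and 1.19 in Hetero KO against WT. Oog1 was listed at 0 in WT 1, WT 2, Hetero KO 3 and Homo KO 3 and had 54.6 and 29.5 TPM in the other Hetero KO libraries. This was at least 390-fold above the WT floor in the group mean, at least 206-fold without Hetero KO replicate 1, and not called. That floor covers counting error only and not reads assigned to Gm10436, which had 148 and 79.3 TPM in WT and 442, 262 and 115 TPM in Hetero KO. Oog4 was at 13.9, 15.4 and 26.0 TPM in Homo KO and 9.77 and 10.5 TPM in WT (0.85, SE 0.377, edgeR adjusted p 0.393).

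Counted by TPM that do not overlap, 3 members differed between Homo KO and WT (Oog4 higher, Pramel6 and Pramel7 lower) against 29.8% of all genes. Between Hetero KO and WT it was 2 members (Oog4 and Pramel5, both higher) against 20.3%, and between Homo KO and Hetero KO it was 4 (Pramef17 and Pramef25 higher, Pramef12 and Pramel7 lower) against 14.8%. Pramel3 was near 0 in 1 library, Homo KO replicate 2, at 0.72 TPM against 12.7 to 27.4 TPM in the other 7. Of the 18 other PRAME family genes and the 8 ligase partners, 0 were called with edgeR in any knockdown or deletion comparison. At most 5 and 1 of them lay below an unadjusted p of 0.05 in any of these comparisons, the 5 in Homo KO against WT.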

How the data were processed

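RNA-seq of 16 pools of 10 mouse embryos was read, made with the SMART-Seq v4 PLUS kit per the labels' protocols. The submitters' processing notes name STAR 2.7.10, RSEM 1.3.3, Bowtie2 2.4.5 and mm10, without saying which tool made which file. The authors deposited RSEM gene tables, and per the file headers these hold expected counts and TPM for 24411 genes in each library. RSEM divides reads that fit several genes among them by estimated probability, so near-identical PRAME copies can share reads. The members, the gene lists and the tests were chosen with earlier results of these data known.

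Expected counts were rounded and fitted with edgeR 4.0.16 in R 4.3.3 (TMM scaling, filterByExpr with a minimum count of 10, robust quasi-likelihood test, two-sided, Benjamini-Hochberg over all genes tested, threshold 0.05). The knockdown fit held 8 libraries and 16980 genes, the 4-cell fit 8 libraries and 13766 genes, and comparisons across both experiments all 16 libraries and 16669 genes. All 19 members could be tested in each. A fold against a group at 0 was computed against a floor of 3 counts over the group. Alternatives were DESeq2 1.42.0 size factors and its Wald test, limma 3.58.1 on log2(TPM + 1) and log2(TPM + 0.1), no filter, the compared groups alone, a replicate block, and leaving out each library. By the naming rule, values are given for Oog members, the 4 genes given by name and any Pramef or Pramel member with a group mean of at least 1 TPM (all members met it), for the 6 other PRAME genes with the highest mean TPM, and for genes of the fixed partner, oocyte factor and 2-cell regulator lists. Promoters came from RefSeq and were aligned globally with Biopython 1.88, and identity is the number of equal bases over the length of 300. The 60-base Oog stretches and the promoter pairs printed in full were chosen after values were seen. Symbols were matched to RefSeq by symbol, older symbol or accession. The edgeR fit was tested on simulated counts, where for siPcgf5 against siControl at late 2-cell over 16980 genes it recovered 0% of genes changed by 1 on the log2 scale, 46% at 2 and 74% at 4. The simulated level of a gene was its mean over the 8 knockdown libraries of both stages, and the changed genes were drawn at random. These shares are therefore not those of the members at their late 2-cell levels. Summed counts per library ran from 14310634 to 55620137, and intervals cover the spread between libraries, while floors cover counting error only. Chromatin immunoprecipitation samples of the series were not used here.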

Additional observations from a re-analysis of the deposited data

How the results depend on the processing

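Over 190 results (19 members in 10 comparisons) and 2207 alternative values, 60 lost the call, 37 gained one, of which 21 in WT 4-cell against siControl late 2-cell, and 0 called values changed sign. Called here means called in the edgeR fit of all libraries. Of values not called in that fit, 171 changed sign. One of them was Pramef17 in siControl morula against WT 4-cell (-0.78), at 1.80 without WT 4-cell replicate 1 and -1.64 without replicate 2. Among those named, at late 2-cell in siPcgf5 against siControl, Pramel5 was -0.018 with DESeq2 size factors and with its Wald test, -0.049 with limma on log2(TPM + 1) and -0.049 on log2(TPM + 0.1). Without single libraries Pramel5 ran from -0.29 to 0.43, Pramel4 from -0.20 to 0.69, Pramel6 from -0.37 to 0.79, Pramel7 from -0.14 to 0.77 and Oog4 from -0.64 to 0.37, and Oog4 was 0.015 with the replicate block. At the morula Pramel3 ran from -2.09 to 0.71 and Pramel6 from -0.060 to 0.090. From late 2-cell to morula in siControl Pramel1, at 0.16 with edgeR, was -0.017 with DESeq2 size factors and with its Wald test, -0.24 and -0.79 with limma on log2(TPM + 1) and log2(TPM + 0.1), and -0.91 to 0.78 without each library. Members called between late 2-cell and morula ran from 14 to 16 in siControl and from 14 to 17 in siPcgf5 when each library was left out, against 17 and 18. Members called in WT 4-cell against siControl late 2-cell were 8, 14 with limma on log2(TPM + 1), 13 on log2(TPM + 0.1) and 4 to 9 without each library. In siControl morula against WT 4-cell they were 7, and 4 to 7 without each library. Knockdown and deletion comparisons stayed at 0 members under every alternative run. As sums of TMM-scaled CPM in place of TPM, the log2 ratio of siControl morula to late 2-cell was -10.05 for -11.10 (Oog), -2.91 for -4.37 (2-cell-type), -2.76 for -3.93 (Pramef) and 1.69 for 0.83 (Pramel). The cause of these shifts was not tested. No label says whether same-numbered libraries share more than a number. The correlation of their deviations from group means ran from -0.13 to 0.17, and it cannot show whether they share an origin. Where both groups had 2 libraries, replicates 1 and 2 mirror each other and give the same value. With the replicate block, 16 and 17 members were called between stages in siControl and siPcgf5, 8 in WT 4-cell against siControl late 2-cell, 6 in siControl morula against WT 4-cell and 0 elsewhere. With 2 or 3 libraries a group, the 95% interval of a member reached 0.901 to either side at the median in late 2-cell knockdown and 1.57 in Homo KO against WT.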

Other observations

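Gm3139 (Pramel42) and D5Ertd577e (Pramel48), both on chromosome 5 and outside the member rule, had their highest mean TPM at the 4-cell stage. So did Pramel7 in WT and Hetero KO, though its TMM-scaled CPM overlapped with morulae. Gm3139 had a mean of 569 TPM in WT 4-cell embryos against 179 TPM in siControl late 2-cell embryos and 242 TPM in siControl morulae. D5Ertd577e had means of 110, 33.8 and 27.0 TPM in the same order. Against siControl late 2-cell, both were called higher in WT 4-cell embryos (1.99, SE 0.411, and 2.01, SE 0.421, on the log2 scale, edgeR, and 1.79 and 1.83 with limma on log2(TPM + 1)), and D5Ertd577e was called lower in siControl morula than in WT 4-cell (-1.37, SE 0.413, edgeR). Gm3139 was called lower there with limma (-1.24) and not with DESeq2 size factors in the edgeR fit (-0.60). These genes were singled out after their values were seen.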
